A study of Homo sapiens with 6 samples.

Results

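The 10 genes described here encode neuropeptide precursors and were chosen by symbol: CRH, NPY, VIP, GAL, TAC1, PENK, ADCYAP1, CARTPT, SST and CALCA. All 10 were found among the 36601 genes of the deposited matrices. They were measured by Seq-Well S3, a single-cell RNA-seq method that pairs cells with barcoded beads in small wells, in SK-N-BE(2)-C cells. This is an established neuroblastoma line with MYCN amplification. The 6 libraries formed 3 groups of 2: the solvent control DMSO, TSA (the usual abbreviation of trichostatin A, which blocks the catalytic site of histone deacetylases) and E6R, a code name. The title given to the series names an inhibitor of HDAC complexes that does not act on the enzyme. Dose, treatment time and whether replicates came from separate cultures are not given in the sources used here, so p-values measure the spread between these libraries, which may be technical.

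Neuropeptides are made as larger precursors, cut by prohormone convertases, stored in dense-core granules and released to act on G protein-coupled receptors. Neuroblastoma arises from sympathoadrenal cells, which co-release peptides such as NPY with catecholamines, and VIP secretion is a textbook feature of some of these tumours. Several peptide genes carry a cAMP response element, the binding site of CREB-family factors, close to the start of transcription.

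Upstream sequences are shown for VIP and NPY, which had a measurable level. For SST and CARTPT, which were almost silent, only a window around a full cAMP response element is shown. They come from RefSeq promoters on GRCh38.p14, read 5′ to 3′ on the strand of the gene, and capitals mark TGACG, the core of the cAMP response element, on either strand. The VIP stretch is chr6:152750547-152750796 (plus strand), the NPY stretch chr7:24283940-24284162 (plus strand), the SST window chr3:187670414-187670461 (minus strand) and the CARTPT window chr5:71719112-71719159 (plus strand).
VIP: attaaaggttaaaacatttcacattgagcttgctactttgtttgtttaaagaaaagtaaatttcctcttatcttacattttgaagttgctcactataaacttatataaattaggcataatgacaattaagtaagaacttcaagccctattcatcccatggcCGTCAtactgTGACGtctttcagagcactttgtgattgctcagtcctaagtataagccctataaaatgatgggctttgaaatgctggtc
NPY: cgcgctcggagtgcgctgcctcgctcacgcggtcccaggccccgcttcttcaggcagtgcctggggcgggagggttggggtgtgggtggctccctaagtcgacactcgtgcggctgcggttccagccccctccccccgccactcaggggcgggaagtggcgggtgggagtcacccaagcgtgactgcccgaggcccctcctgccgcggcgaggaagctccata
SST: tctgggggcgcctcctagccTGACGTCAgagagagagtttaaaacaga
CARTPT: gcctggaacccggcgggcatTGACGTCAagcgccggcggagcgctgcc
The full element TGACGTCA, which is its own reverse complement and holds the core on both strands, lay within the 250 bases before the start of SST and of CARTPT. TAC1, CALCA and ADCYAP1, which were also almost silent, lacked it in their promoter entries, as did VIP and NPY. VIP held 2 copies of the core, one on each strand, separated by a short spacer. NPY held none in its 250 bases. Of 35116 RefSeq promoters of this length, 1.65% held TGACGTCA and 21.2% held TGACG on either strand. These are matches of letters and not measured binding sites. CRH, GAL and PENK were not matched in the promoter table.

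Cells were barcodes with 500 or more genes and at most 20% of UMIs (unique molecular identifiers, each counting 1 captured transcript) from mitochondrial genes, 17589 in all and 1861 to 3946 per library. The summed cells held 4206366 to 26180262 UMIs per library, with medians per cell of 1053.5 to 1880. The share of mitochondrial UMIs was 1.51% and 1.55% in the E6R libraries and 5.83% to 9.71% in the other 4. Of 9 adrenergic neuroblastoma markers, none was under 1 CPM (UMIs scaled to a common library total) in every library, and their summed level was 2844 to 3722 CPM. The leukocyte markers summed to at most 2.13 CPM and the Schwann cell markers to at most 16.5. Libraries shared barcodes: of 88400 distinct barcodes, 897 occurred in 2 or more libraries and 93 in all 6. Cells with such a barcode numbered 842 and carried 8.34% of the UMIs in cells of DMSO replicate 1, 9.07% in DMSO replicate 2, 24.8% and 13.3% in the TSA libraries, and 26.5% and 51.1% in the E6R libraries. The fold changes of the 4 tested members are therefore also given without these cells; shares of cells and joint detection were not recomputed without them.

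The set split into 4 genes with a measurable level and 6 near the limit of detection. VIP had 31004 UMIs over all cells, NPY 16699, GAL 3781 and CRH 2545. CARTPT had 20 UMIs, CALCA 8, PENK 2, and TAC1, ADCYAP1 and SST 1 each, in all 6 libraries together. Only the first 4 passed the low-count filter, and no comparison was made for the other 6. CARTPT, a satiety-related peptide, was seen in 4 of the 6 libraries, with 2 UMIs in DMSO replicate 2, 6 and 4 under TSA and 8 in E6R replicate 2. CALCA, the precursor of calcitonin and CGRP, had 1 UMI in DMSO replicate 2, 4 and 2 under TSA, and 1 in E6R replicate 2; it overlaps CALCB on the other strand, and the strand rule of the counting is not given in the sources used here. In DMSO replicate 1, TAC1 (substance P precursor) and SST (somatostatin) were found in 0 of 1861 cells, which allows a share of up to 0.161% of cells with a UMI. Intervals and such limits cover counting error only.

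**Figure D1:**
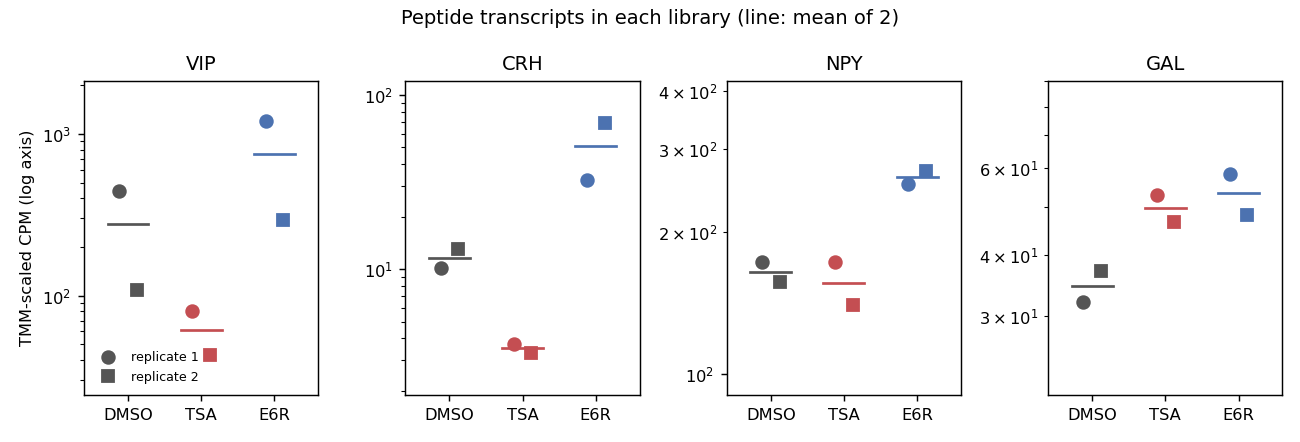
TMM-scaled CPM of VIP, CRH, NPY and GAL (log axes) in each library of DMSO, TSA and E6R; circles are replicate 1, squares replicate 2 and lines the mean of both. CRH levels are separated in the order TSA, DMSO, E6R, while the VIP levels of DMSO and E6R overlap, with replicate 1 above replicate 2 in every group.

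CRH (ENSG00000147571; GRCh38 chromosome 8, 66176382 to 66178725, minus strand, protein coding) encodes corticotropin-releasing hormone, the hypothalamic starter of the stress axis. It had 10.2 and 13.0 CPM in the DMSO libraries, 3.72 and 3.31 under TSA, and 32.4 and 68.8 under E6R, where CPM is scaled by TMM. The 3 groups did not overlap, and TSA was lowest and E6R highest. CRH fell under TSA by 1.72 on the log2 scale (SE 0.41, edgeR adjusted p = 0.0168). Against TSA, CRH was higher under E6R by 3.84 on the log2 scale, a fitted 14.4-fold difference (SE 0.41, edgeR adjusted p = 0.000638). E6R against DMSO gave a log2 fold change of 2.12, or 4.36-fold (SE 0.38), and did not pass (edgeR adjusted p = 0.205). The 3 epithelial markers EPCAM, CDH1 and KRT19, of which 1 was under 1 CPM in all libraries, summed to 27.8 and 74.8 CPM under DMSO, 10.3 and 10.1 under TSA, and 43.4 and 94.6 under E6R, and their part in the CRH levels was not tested. Nearly all of this sum was KRT19, with 26.3 and 73.8, 10.03 and 9.40, and 42.2 and 94.0 CPM, while EPCAM had at most 1.27 CPM and CDH1 at most 0.383 CPM. The edgeR call for TSA against DMSO was lost without DMSO replicate 2 (log2 fold change -1.61, adjusted p = 0.0720), TSA replicate 1 (-1.78, adjusted p = 0.0890) or TSA replicate 2 (-1.60, adjusted p = 0.115). E6R against DMSO was called without E6R replicate 1 (log2 fold change 2.67, edgeR adjusted p = 0.0342), and without E6R replicate 2 the log2 fold change was 1.52 (edgeR adjusted p = 0.124). E6R against TSA gave 3.22 without E6R replicate 2 (edgeR adjusted p = 0.000189). Without cells of shared barcodes the edgeR log2 fold changes were -1.94 for TSA (adjusted p = 0.00783), 1.78 for E6R against DMSO (adjusted p = 0.453) and 3.72 for E6R against TSA (adjusted p = 0.000573).

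VIP (ENSG00000146469; chromosome 6, 152750798 to 152759765, plus strand, protein coding) encodes vasoactive intestinal peptide, a vasodilator and secretagogue. It had 445 and 108 CPM under DMSO, 79.6 and 42.9 under TSA, and 1202 and 293 under E6R. Both TSA libraries lay below both DMSO libraries, and E6R replicate 2 lay below DMSO replicate 1, so DMSO and E6R overlapped. VIP was higher under E6R than under TSA by 3.61 on the log2 scale (SE 0.83, edgeR adjusted p = 0.0116). TSA against DMSO gave a log2 fold change of -2.17 (SE 0.79, edgeR adjusted p = 0.0712) and E6R against DMSO 1.43 (SE 0.76, edgeR adjusted p = 0.369), neither past the threshold. The call for E6R against TSA was lost without TSA replicate 1 (log2 fold change 4.13, edgeR adjusted p = 0.0567) and without TSA replicate 2 (3.24, adjusted p = 0.103). It was 2.33 without E6R replicate 1 (edgeR adjusted p = 0.0160) and 4.31 without E6R replicate 2 (edgeR adjusted p = 0.000860). TSA against DMSO was called without DMSO replicate 2 (log2 fold change -2.93, adjusted p = 0.0421) and without either E6R library (adjusted p = 0.0132 and 0.0126); the fold change was -0.79 without DMSO replicate 1. E6R against DMSO moved to 2.93 without DMSO replicate 1, 0.80 without DMSO replicate 2, 0.18 without E6R replicate 1 and 2.16 without E6R replicate 2, with no call. Without cells of shared barcodes the edgeR log2 fold changes were -2.08 for TSA (adjusted p = 0.0800), 1.28 for E6R against DMSO (adjusted p = 0.556) and 3.36 for E6R against TSA (adjusted p = 0.0150).

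The spread of VIP between replicates was wide in every group. Replicate 1 exceeded replicate 2 by 4.10 times under DMSO, 1.86 times under TSA and 4.11 times under E6R. Of the 7515 genes tested and averaging at least 20 CPM, 0.759% differed at least as much between the DMSO replicates, 1.69% between the TSA replicates and 0.998% between the E6R replicates. The summed level of 5 fibroblast markers was also higher in replicate 1 of each group. It was 136 and 23.3 CPM under DMSO, 159 and 88.5 under TSA, and 311 and 27.1 under E6R. The 3 endothelial markers summed to 49.5 and 4.02, 11.5 and 4.53, and 65.6 and 1.88 CPM in the same order. Between the DMSO replicates the fibroblast marker COL1A2 went the other way, with 0.850 and 5.36 CPM. In either replicate the fibroblast sum was higher under TSA than under DMSO, while VIP was lower. Under E6R the fibroblast sum and VIP were both higher than under DMSO in either replicate. Against TSA, VIP was higher under E6R in both replicates, and the fibroblast sum was higher in replicate 1 and lower in replicate 2. The endothelial sum had the group order of VIP in replicate 1 and the reverse order in replicate 2. No marker of either list was at 0 in all libraries. Within DMSO replicate 1, 42.0% of cells with a fibroblast marker UMI and 20.7% of the others had VIP, after each cell was thinned to 1000 UMIs. The same shares were 15.1% and 5.81% in TSA replicate 1 and 54.7% and 40.1% in E6R replicate 1. In replicate 2 they were 7.14% and 9.94% under DMSO, from 42 cells with a marker, 3.66% and 3.31% under TSA, and 24% and 16.0% under E6R, from 50 cells with a marker. For the endothelial markers the shares of cells with VIP were 8.33% with a marker UMI and 23.7% without in DMSO replicate 1, 0% and 6.99% in TSA replicate 1, and 40.4% and 43.7% in E6R replicate 1. Replicate 2 had 8 to 12 such cells per library. The part of these marker genes in the VIP levels was not tested.

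NPY (ENSG00000122585; chromosome 7, 24284163 to 24291865, plus strand, protein coding) encodes neuropeptide Y, a cotransmitter of sympathetic neurons. It had 173 and 157 CPM under DMSO, 172 and 139.7 under TSA, and 253 and 270.4 under E6R. DMSO and TSA overlapped, and both E6R libraries were above the other 4. NPY was higher under E6R than under TSA by 0.75 on the log2 scale, or 1.68-fold (SE 0.20, edgeR adjusted p = 0.0193). E6R against DMSO gave 0.67 (SE 0.20, edgeR adjusted p = 0.211) and TSA against DMSO -0.08 (SE 0.20, edgeR adjusted p = 0.787). The call was lost without TSA replicate 1 (edgeR adjusted p = 0.0542), without TSA replicate 2 (0.158) and with each cell thinned to 1000 UMIs (log2 fold change 0.57, adjusted p = 0.109); without cells of shared barcodes it held at 0.71 (adjusted p = 0.0342), with -0.13 for TSA (adjusted p = 0.678) and 0.58 for E6R against DMSO (adjusted p = 0.457).

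GAL (ENSG00000069482; chromosome 11, 68683779 to 68691175, plus strand, protein coding) encodes galanin, a peptide induced in injured neurons. It had 32.1 and 37.1 CPM under DMSO, 52.8 and 46.7 under TSA, and 58.3 and 48.2 under E6R. Both DMSO libraries were lowest, and TSA and E6R overlapped. No comparison passed: the log2 fold change was 0.52 for TSA (SE 0.21, edgeR adjusted p = 0.100), 0.62 for E6R (SE 0.21, edgeR adjusted p = 0.225) and 0.10 for E6R against TSA (SE 0.21, edgeR adjusted p = 0.732). GAL passed for TSA against DMSO in all deposited barcodes (log2 fold change 0.69, edgeR adjusted p = 0.0382). Without cells of shared barcodes its edgeR log2 fold changes were 0.31 for TSA (adjusted p = 0.364), 0.49 for E6R (adjusted p = 0.496) and 0.18 for E6R against TSA (adjusted p = 0.580).

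**Figure D2:**
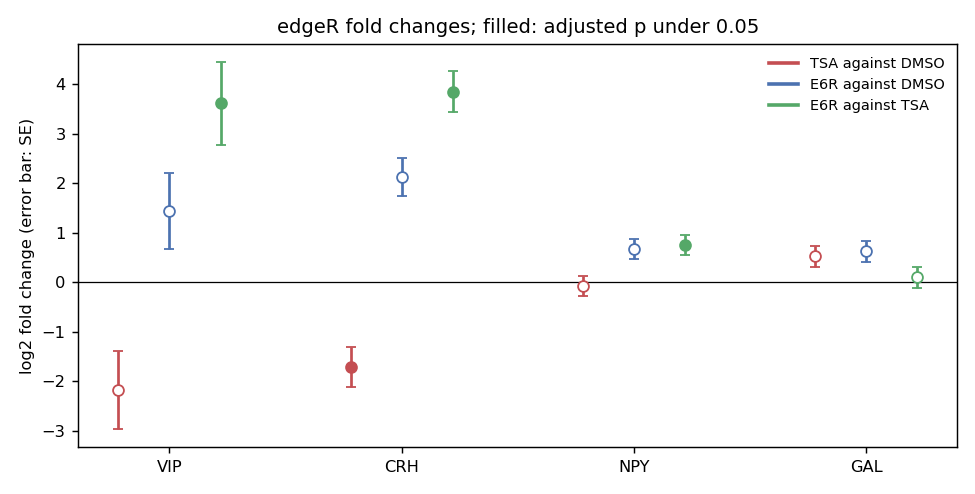
Fitted log2 fold changes of VIP, CRH, NPY and GAL in the 3 comparisons, with standard errors; filled points have an edgeR adjusted p under 0.05. CRH is filled at -1.72 for TSA against DMSO and at 3.84 for E6R against TSA, and no point is filled for E6R against DMSO.

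Read against all 16763 tested genes, the counts were as follows. For TSA against DMSO, CRH was the 1 of 4 tested members called, and it was lower; 29.7% of all tested genes were called, 13.5% as lower and 16.2% as higher. At an unadjusted p under 0.05 there were 3 of 4 members (42.6% of all genes). The TSA and DMSO libraries did not overlap for GAL, higher (36.7% of all genes), and for CRH and VIP, lower (34.6%); DESeq2 called CRH (35.1% of genes with an adjusted p). For E6R against DMSO, 0 of 4 members and 0% of all genes were called by edgeR. At an unadjusted p under 0.05 there were 3 of the 4 members, CRH, NPY and GAL, against 17.4% of all genes, and their E6R libraries did not overlap DMSO, which held in that direction for 24.6% of all genes; no member was lower without overlap, against 22.7%. DESeq2 called 1 of 4 members, CRH (log2 fold change 2.13, adjusted p = 0.000835), and 2.49% of genes with an adjusted p. For E6R against TSA, 3 of 4 members were called, all higher under E6R, against 38.2% of all genes in either direction, 18.7% higher and 19.5% lower. The same 3 passed an unadjusted p under 0.05 (48.5% of all genes), did not overlap (33.7% higher and 38.9% lower among all genes) and were called by DESeq2 (39.4%). TSA libraries are shared by the first and last comparison and DMSO libraries by the first 2, so these counts are not independent. The 4 members' median log2 fold changes were -0.90, 1.05 and 2.18, against -0.01, 0.03 and -0.09 over all tested genes. With library totals in place of TMM the medians over all genes moved to -0.32, -0.10 and 0.08, and no member changed sign.

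Peptide transcripts were found in a minority of cells in most libraries. VIP was found in 28.4% and 12.8% of DMSO cells, 16.1% and 9.26% of TSA cells, and 57.6% and 28.4% of E6R cells. At 1000 UMIs per cell these were 23.1% (exact 95% binomial interval 20.7 to 25.6) and 9.87% (8.49 to 11.4) under DMSO, 6.91% (5.80 to 8.16) and 3.33% (2.7 to 4.07) under TSA, and 43.6% (41.5 to 45.7) and 16.2% (14.7 to 17.8) under E6R. As in CPM, TSA was lowest and E6R replicate 2 lay below DMSO replicate 1. CRH was in 1.88% and 1.95% of DMSO cells, 1.46% and 0.942% of TSA cells, and 7.02% and 10.9% of E6R cells; thinned, the shares were 1.18% and 1.37%, 0.432% and 0.215%, and 2.86% and 4.26%. NPY had 19.1% and 18.8%, 24.9% and 22.6%, and 34.1% and 34.1%, which at equal depth became 13.6% and 14.6%, 11.9% and 9.82%, and 17.0% and 20.3%. The unthinned NPY share was thus higher under TSA than under DMSO and the thinned one lower, and no order of DMSO and TSA is read from it. GAL had 7.04% and 5.65%, 13.8% and 11.5%, and 17.1% and 13.3%, and thinned 3.96% and 3.45%, 3.83% and 3.19%, and 5.14% and 4.17%, so thinned DMSO and TSA shares overlapped and both E6R shares lay above them by a small margin. Thinning left out 503 to 1718 cells per library. For any of these shares the exact two-sided permutation test of 2 libraries against 2 cannot go below p = 0.33.

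**Figure D3:**
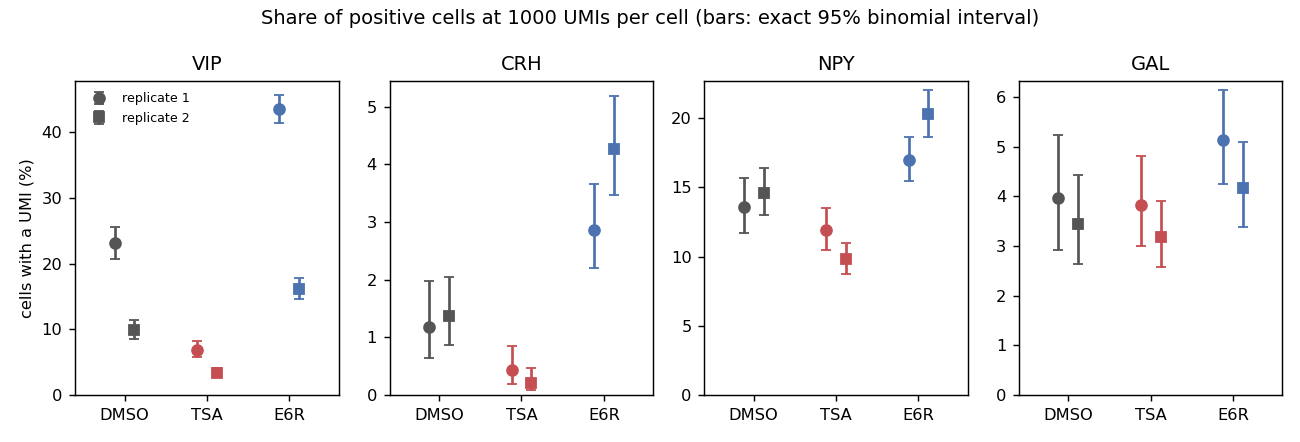
Percent of cells with at least 1 UMI of VIP, CRH, NPY or GAL after each cell was thinned to 1000 UMIs, by library, with exact 95% binomial intervals. VIP reaches 43.6% in E6R replicate 1 and CRH stays under 5% of cells in every library.

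The cells are labelled as a single line, and no cell type that should lack these genes was defined. Barcodes below the cell filter therefore served for comparison. Their VIP CPM was 0.695 to 1.01 times that of cells, NPY 0.633 to 0.942 times, GAL 0.653 to 0.990 times and CRH 0.624 to 1.5 times. Peptide RNA was thus also found in barcodes that failed the gene minimum or the mitochondrial limit. The lowest CRH ratio, in TSA replicate 2, rested on 7 UMIs in such barcodes. Whether a single UMI in a cell came from free RNA was not tested. The count per cell ran further. In cells thinned to 1000 UMIs, VIP reached 18 UMIs in 1 cell of DMSO replicate 1 and 22 in E6R replicate 1, against at most 5 in either TSA library. Cells with 5 or more VIP UMIs were 2.61% of DMSO replicate 1 and 6.0% of E6R replicate 1, and held 38.8% and 41.8% of the thinned VIP UMIs there. In E6R replicate 2 they were 0.808% of cells and held 21.3%. Before thinning, the 1% of cells with most VIP UMIs held 27.5% to 57.9% of all VIP UMIs of a library, the most in E6R replicate 2. In DMSO replicate 2 and TSA replicate 2 no thinned cell had 5. CRH stood at 1 UMI per positive thinned cell in all DMSO and TSA libraries and at 1.16 and 1.21 under E6R. Cells were also split into 4 classes by depth, and the lowest and highest class values are given, whatever their order. Plain CPM of VIP lay between 978 and 1252 in E6R replicate 1 and between 177 and 308 in E6R replicate 2. In TSA replicate 1 it fell from 134 in the shallowest class to 69.6 in the deepest. GAL in TSA replicate 1 rose with depth from 24 to 53.2. CRH in E6R replicate 2 lay between 37.9 and 72.9 without a steady direction. NPY in E6R replicate 2 lay between 255 and 288, the highest in the shallowest class.

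VIP and NPY were found together more often than their separate shares would give. At 1000 UMIs per cell, 44 and 28 DMSO cells had both where 37.2 and 24.3 would if the genes were unrelated. Under TSA there were 25 and 21 against 15.3 and 9.14, and under E6R 202 and 101 against 163 and 73.0. The ratio was above 1 in all 6 libraries, between 1.15 and 2.30. For VIP and GAL the ratio was also above 1 in all 6, between 1.01 and 1.35, from 4 to 52 joint cells. For NPY and GAL it ran from 0.784 to 1.42. For CRH no pair had more than 25 joint cells in a library. Cells with 2 or more of the 4 peptides were 4.97% and 2.68% under DMSO, 2.32% and 1.11% under TSA, and 12.1% and 7.41% under E6R.

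Genes whose log2 CPM followed a member over the 6 libraries were sought where expression averaged at least 20 CPM, for the 3 members with the highest mean CPM. For VIP the 3 highest Pearson correlations were those of CD44, a hyaluronan receptor (r = 0.999), TMEM123 (0.995) and CNIH3, an auxiliary protein of AMPA receptors (0.995). CD44 had 70.7 and 27.2 CPM under DMSO, 19.6 and 13.5 under TSA, and 158 and 54.1 under E6R. CD44 thus also stood higher in replicate 1 of each group. For NPY they were DPH5, UQCC1 and NT5C3A (each r = 0.991), and for GAL FAR1 (0.997), TFAM and DDX50 (both 0.990). These are the extremes of 7514 genes over 6 libraries that share group, depth and replicate differences, and are a description only. In cells thinned to 1000 UMIs, VIP was in 40.5% of CD44-positive and 21.8% of other cells of DMSO replicate 1. These shares were 8.70% and 9.90% in DMSO replicate 2, 15.4% and 6.73% in TSA replicate 1, and 9.09% and 3.27% in TSA replicate 2. Under E6R they were 50.5% and 42.6% in replicate 1 and 16.3% and 16.1% in replicate 2. TMEM123-positive cells had VIP less often than other cells in all 6 libraries, and for CNIH3 the direction varied between libraries.

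Of 28 receptor and receptor-partner genes, 12 were tested, and for TSA 3 were called, all lower (25%, against 29.7% of all genes). OPRD1, the delta opioid receptor for PENK products, fell from 61.4 and 42.8 CPM under DMSO to 3.34 and 5.92 under TSA (log2 fold change -3.50, SE 0.34, edgeR adjusted p = 0.000962), and had 46.3 and 43.8 under E6R. ADCYAP1R1, the PAC1 receptor for the ADCYAP1 product PACAP, had 13.8 and 14.9, 5.62 and 6.44, and 11.3 and 16.2 CPM, and fell under TSA by 1.25 (edgeR adjusted p = 0.0226). RAMP2, a partner of the calcitonin-like receptor, fell by 2.48 (edgeR adjusted p = 0.0254), from 6.16 and 2.10 to 0.760 and 0.697 CPM. E6R against DMSO called 0 of 12 by edgeR and 0 by DESeq2 (2.49% of all genes with an adjusted p), with 3 at an unadjusted p under 0.05 (25%, against 17.4% of all genes). E6R against TSA called 7 of 12 (58.3%, against 38.2% of all genes), 5 higher and 2, VIPR2 and OPRK1, lower under E6R. Among the 5 were OPRM1, the mu opioid receptor, and NPY2R, an autoreceptor for NPY. OPRM1 had 5.74 and 19.7, 0.988 and 1.22, and 1.83 and 33.0 CPM (log2 fold change 3.98, SE 1.23, edgeR adjusted p = 0.0353), so its E6R libraries differed widely. NPY2R had 4.04 and 7.08, 2.89 and 3.31, and 12.6 and 12.5 (log2 fold change 2.01, SE 0.38, edgeR adjusted p = 0.00538). Receptors of GAL, SST and VIP gave SSTR2 with 64.3 to 120 CPM in all libraries and no call, and GALR1, VIPR1 and VIPR2 at no more than 2.34 CPM. Over the 12 receptor genes the median log2 fold change was -0.97 for TSA, -0.19 for E6R and 1.43 for E6R against TSA, against -0.01, 0.03 and -0.09 over all tested genes.

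**Figure D4:**
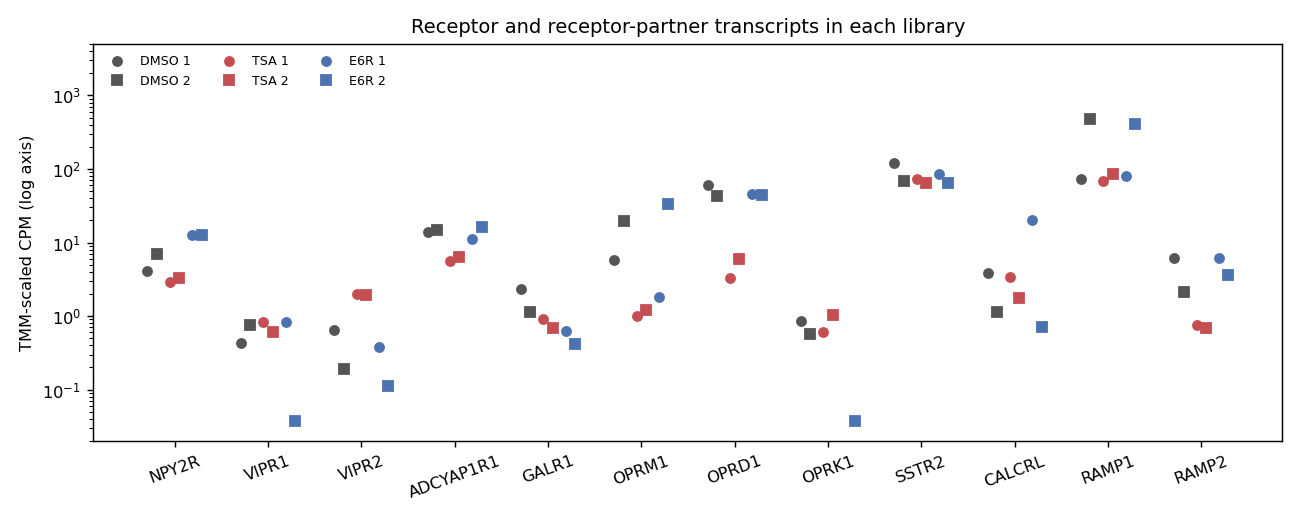
TMM-scaled CPM (log axis) of the 12 tested receptor and receptor-partner genes in each library; colours are treatments, circles replicate 1 and squares replicate 2. OPRD1 lies at 3.34 and 5.92 under TSA and at 42.8 or more elsewhere; OPRK1 in E6R replicate 1 is at 0 and is not drawn.

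Of 17 processing and dense-core granule genes, 15 were tested, and 1 was called for TSA (6.67%, against 29.7% of all genes). CPD, a carboxypeptidase, rose from 47.2 and 61.0 to 99.7 and 92.9 CPM (log2 fold change 0.83, edgeR adjusted p = 0.0276). E6R against DMSO called 0 of 15 by edgeR and 1 by DESeq2, with 1 at an unadjusted p under 0.05 (2.49% and 17.4% of all genes). E6R against TSA called 6 of 15 (40%, against 38.2% of all genes), 5 of them higher (18.7% of all genes). These included SCG2, a granin that yields secretoneurin, with 470 and 922 CPM under DMSO, 631 and 731 under TSA, and 1269 and 1763 under E6R (log2 fold change 1.16, edgeR adjusted p = 0.0281). SCG5, a chaperone of the convertase PCSK2, was at 15.6 and 5.05 under TSA and 39.4 and 33.1 under E6R (log2 fold change 1.80, edgeR adjusted p = 0.0170). The median log2 fold changes of the 15 genes were -0.03, 0.17 and 0.53 in the same order of comparisons.

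Of 24 regulators of the cAMP, CREB and REST pathways, all were tested, and 12 were called for TSA (50%, against 29.7% of all genes), 6 higher and 6 lower. FOS, an immediate-early gene, rose from 23.2 and 6.12 to 234 and 247 CPM (log2 fold change 4.05, SE 0.51, edgeR adjusted p = 0.00185). PRKACA, a catalytic subunit of protein kinase A, rose from 50.8 and 44.8 to 174 and 197 CPM (1.96, edgeR adjusted p = 0.00177). CREBBP, the CREB-binding acetyltransferase, fell from 113 and 103 to 44.4 and 48.1 CPM, by 1.23 (edgeR adjusted p = 0.00455). PRKAR2A, a regulatory subunit of protein kinase A, fell by 0.83 (edgeR adjusted p = 0.0174). E6R against DMSO called 0 of 24 by edgeR and 1 by DESeq2, with 2 at an unadjusted p under 0.05 (2.49% and 17.4% of all genes). E6R against TSA called 12 of 24 (50%, against 38.2% of all genes), 6 higher and 6 lower (18.7% and 19.5% of all genes). CREB1 had 77.1 and 62.2 CPM under DMSO, 40.5 and 42.1 under TSA, and 63.5 and 64.0 under E6R. It was higher under E6R than under TSA by 0.63 (edgeR adjusted p = 0.0355). TSA against DMSO gave -0.75 (edgeR adjusted p = 0.0242) and E6R against DMSO -0.13 (edgeR adjusted p = 0.771). The medians of the 24 genes were 0.25, 0.12 and 0.10 on the log2 scale.

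Of 45 other peptide and hormone genes, 14 were tested, and most of the rest were near silent. TSA called 2, both higher (14.3%, against 29.7% of all genes). ADM2, an adrenomedullin-family peptide, rose from 3.19 and 1.91 to 8.36 and 7.92 CPM, and had 3.35 and 2.11 under E6R (log2 fold change 1.68 for TSA, SE 0.47, edgeR adjusted p = 0.0313). NPPC, C-type natriuretic peptide, had 0 UMIs in both DMSO libraries, 12 and 5 under TSA, and 13 and 19 under E6R (edgeR adjusted p = 0.0459 for TSA). Its level was at most 0.912 CPM in any library, and no fold is given. E6R against DMSO called 0 of 14 by edgeR and 0 by DESeq2, with 1 at an unadjusted p under 0.05 (2.49% and 17.4% of all genes). E6R against TSA called 1 of 14 (7.14%, against 38.2% of all genes), ADM2, lower under E6R. The medians of the 14 genes were 0.93, 0.44 and -0.17 on the log2 scale.

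**Figure D5:**
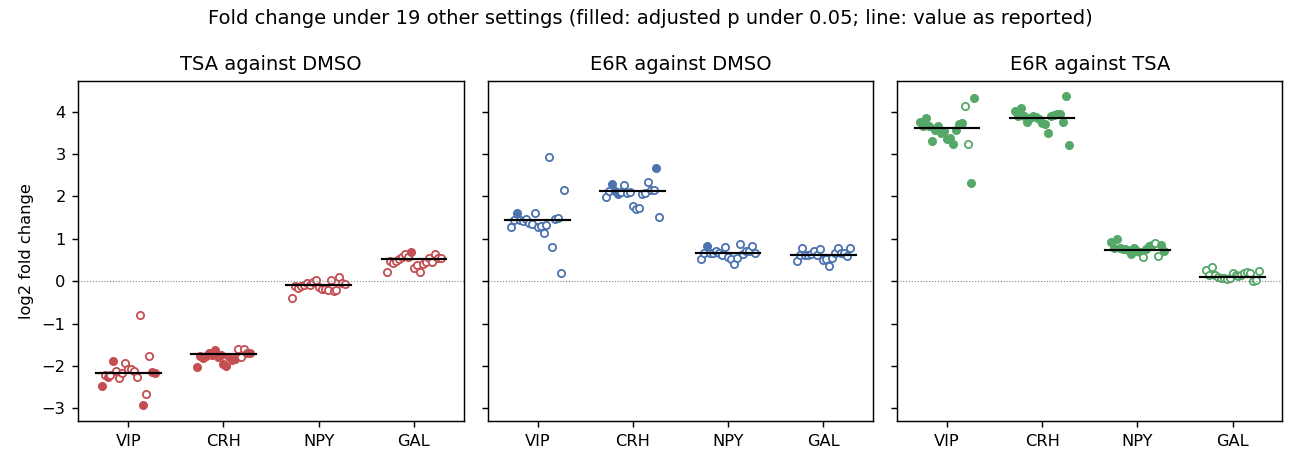
Log2 fold changes of VIP, CRH, NPY and GAL under 19 other settings (points; filled with adjusted p under 0.05) beside the value as reported (line), for the 3 comparisons. CRH for E6R against TSA is filled at all 19 points, and VIP for E6R against DMSO ranges from 0.18 to 2.93.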

How the data were processed

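Seq-Well S3 libraries were deposited as matrices of whole-number UMI counts per gene and barcode, which the authors had not normalized. STARsolo 2.7.9a and GRCh38 are named in the submitters' processing notes; the annotation is not given in the sources used here. A barcode needed 500 genes or more and at most 20% MT- UMIs, and counts were summed per library, since cells are not replicates. Doublets were not called; a fit without the 5% deepest cells was one alternative.

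The sums were tested with edgeR 4.0.16 (R 4.3.3): TMM, filterByExpr, quasi-likelihood test with group as the only term, all 6 libraries in 1 fit, Benjamini-Hochberg adjustment at 0.05 over 16763 genes; the procedure was tested on simulated data. Standard errors come from the F statistic. DESeq2 1.42.0 was an alternative. Thinning drew 1000 UMIs per cell without replacement. Log2 CPM for correlations used a prior count of 2. Coordinates are from GENCODE 29, which held 34616 of the 36601 gene IDs.

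All 10 members are named whatever their result; of each pathway list, up to 4 called genes with the highest mean CPM per comparison, and other genes where a count or library pattern needed them. The members, lists and rules were chosen with earlier results of these data known.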

Additional observations from a re-analysis of the deposited data

How the results depend on the processing

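Each of the 12 member fold changes was refitted under 19 alternatives, of which the fit without barcodes found in 2 or more libraries was chosen after seeing the data; where leaving out a library left 1 in a group, that library was assumed to vary like the others. Of these 228 refits, 204 kept direction and side of the threshold, 13 gained a call, 8 lost one and 3 reversed. The reversals were all NPY for TSA against DMSO, with log2 fold changes of 0.041 in all deposited barcodes, 0.03 without DMSO replicate 1 and 0.11 without TSA replicate 2; leaving out single libraries gave -0.22 to 0.11. CRH for E6R against TSA was called in 19 of 19 alternatives and CRH for TSA against DMSO in 16. Members called for TSA against DMSO numbered 2 with library totals only, without the low-count filter, with the replicate block and in all deposited barcodes, and 0 to 2 when single libraries were left out. For E6R against DMSO they numbered 3 without the low-count filter, 1 with DESeq2, 1 with the replicate block (CRH, adjusted p = 0.0461) and 0 to 1 when single libraries were left out. For E6R against TSA they numbered 1 to 3 when single libraries were left out. Over all genes, E6R against DMSO gave 1095 calls without the low-count filter, 361 with DESeq2, 19 with the replicate block, 1 in all deposited barcodes, 2 after thinning every library to the smallest total and 0 to 3 when single libraries were left out. E6R against TSA gave 4199 with each cell thinned to 1000 UMIs and 2628 to 6385 when single libraries were left out, and TSA against DMSO 1416 to 6028. The replicate block also brought VIP past the threshold for TSA against DMSO (log2 fold change -1.88, adjusted p = 0.000665). The replicate numbers are not known to pair libraries: differences between replicate 1 and 2 correlated across genes with r = 0.0519 between DMSO and TSA, 0.448 between DMSO and E6R and 0.249 between TSA and E6R. With library totals, TSA against DMSO had 1717 genes called higher and 3361 lower, against 2720 and 2255 with TMM, and E6R against TSA 3731 and 2659, against 3141 and 3267. Of 60 shares of cells recomputed under another filter or depth, 47 moved by more than the spread between replicates. Groups had 2 libraries each, the DMSO sums were the shallowest, and CRH rested on 48 and 68 UMIs under DMSO and 49 and 38 under TSA.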
